A study of Mus musculus with 4 samples.

Results

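Brown adipocytes can turn chemical energy into heat without the uncoupling protein UCP1 by running reactions in a circle at the cost of ATP, and 8 genes that encode the parts of 2 such futile cycles were followed here. The genes were chosen by symbol, with earlier results of these data known: Gatm, Gamt, Slc6a8, Ckb, Ckmt2 and Alpl for the creatine cycle, and Atp2a2 and Ryr2 for the calcium cycle. They are 8 of the 52022 genes with a transcript in the files, and all 8 were among the 15643 genes that passed the filter on low counts and were tested. Ckmt2 passed that filter through the KO libraries.

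In the creatine cycle, creatine is made by GATM and then GAMT or taken up by the transporter SLC6A8, phosphorylated by a creatine kinase at the cost of ATP, and returned to creatine when a phosphatase such as tissue-nonspecific alkaline phosphatase (the product of Alpl) removes the phosphate. CKB is the brain-type kinase assigned to this cycle in brown fat, and CKMT2 is the mitochondrial creatine kinase of striated muscle. In the calcium cycle, the pump SERCA2 (Atp2a2) spends ATP to move calcium into the endoplasmic reticulum and the ryanodine receptor RYR2 lets it out again. The calcium cycle has been described mainly in beige fat.

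Messenger RNA was sequenced from brown adipose tissue, titled iBAT, of male mice after 12 weeks on a high fat diet (60% fat), with food ad libitum. The KO group holds 2 libraries of mice lacking ATF4, a stress-response transcription factor, in thermogenic adipocytes, and the WT group holds 2 libraries of wild-type counterparts. The diet, sex and feeding state are shared by both groups, and the sources used here do not give the age, the strain, the driver of the deletion or whether each library is a separate animal. WT 2 and KO 1 have library names in S1, and WT 1 and KO 2 have names in S2, a prefix whose meaning the sources used here do not give.

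The libraries held 25985367 to 34813870 estimated counts. Adipocyte identity was plain in each of them, with Ucp1 at 5563 to 7024 CPM (counts scaled to a fixed total, with TMM-scaled library sizes) and none of 15 brown adipocyte genes passing the genotype test in the edgeR fit (unadjusted p was under 0.05 for 1, and DESeq2 and limma-voom called 0). With the prefix as a block 1 of the 15 fell, Dio2, the deiodinase that activates thyroid hormone (log2 fold change -0.92, edgeR adjusted p = 0.0132), and without WT 2 the fatty acid elongase gene Elovl3 was called higher (edgeR adjusted p = 0.025). Atf4 itself was at 29.2 (WT 1), 107 (WT 2), 24.97 (KO 1) and 24.5 CPM (KO 2), so the library labelled WT 1 lay close to the KO pair and both KO libraries lay below it. Atf4 did not pass the genotype test (log2 fold change -1.46, SE 0.57, edgeR adjusted p = 0.9998). Nor did it pass in DESeq2 (adjusted p = 0.204) or in edgeR with the prefix as a block (adjusted p = 0.174). With no filter on low counts edgeR called it lower (adjusted p = 2.1e-07). The log2 fold change was -0.24 without WT 2 and -2.11 without WT 1. Skeletal muscle transcripts set the KO libraries apart. Of 18 marker genes 16 rose, where 0.78% of all genes tested were called in either direction. The summed level of the 18 was 42.0 and 60.0 CPM in WT against 2855 and 2336 CPM in KO. Most of the WT sum was Myl1 (38.7 and 44.3 CPM), and 7 of the 18 markers were at 0 in WT 1, 2 in WT 2 and none in KO. Markers at 0 in a WT library could not have passed the filter on low counts without the KO libraries. The 10 heart markers summed to 4.06 to 8.25 CPM, most of it Myl4 (3.87 to 5.45 CPM), with Nppb and Myl7 at 0 in all libraries and Myh6 at no more than 0.0782 CPM. White adipocyte markers summed to 394 and 292 (WT) and 93.1 and 165 CPM (KO), with 5 of 8 tested genes lower in both KO libraries. Of these 8, edgeR called 0 without a block, DESeq2 called 2 lower (Lep and Nnat), and the blocked edgeR fit called 4 lower (Lep, Mest, Nnat and Slc7a10). Below WT in both KO libraries were also 6 of 8 fibroblast and 6 of 11 macrophage markers, and 4 of 8 smooth muscle markers lay above. Of the 15 brown adipocyte genes 4 lay below and 2 above. Endothelial markers followed the prefix instead, with 9 of 10 higher in both S1 libraries than in both S2 libraries. Over all 15643 genes tested, 2055 lay below WT in both KO libraries, 2058 lay above, and 4055 were higher in both S1 libraries. These are bulk samples, so fewer cells of a type and less RNA per cell cannot be told apart.

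The promoters of the kinase pair are shown because Ckmt2 was the only member that passed the test between the genotypes, while Ckb was the other creatine kinase among the members and followed the prefix. Both are RefSeq sequences (GRCm38.p6), 250 bases before to 20 after the annotated start, read 5′ to 3′ on the minus strand, and in both genes that start is the start of the transcript with the highest level in these libraries. Capitals in the Ckmt2 promoter (chr13:91876866-91877135) mark E-boxes, the letters CANNTG that muscle regulatory factors of the MYOD family and many other factors recognise. Capitals in the Ckb promoter (chr12:111672319-111672588) mark a MEF2-type element, the letters CTANNNNTAG.
Ckmt2: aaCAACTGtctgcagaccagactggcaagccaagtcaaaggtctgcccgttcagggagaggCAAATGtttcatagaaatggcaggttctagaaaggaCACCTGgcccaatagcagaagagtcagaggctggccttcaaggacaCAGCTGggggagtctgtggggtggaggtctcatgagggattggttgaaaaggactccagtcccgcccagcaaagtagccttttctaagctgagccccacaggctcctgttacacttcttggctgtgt
Ckb: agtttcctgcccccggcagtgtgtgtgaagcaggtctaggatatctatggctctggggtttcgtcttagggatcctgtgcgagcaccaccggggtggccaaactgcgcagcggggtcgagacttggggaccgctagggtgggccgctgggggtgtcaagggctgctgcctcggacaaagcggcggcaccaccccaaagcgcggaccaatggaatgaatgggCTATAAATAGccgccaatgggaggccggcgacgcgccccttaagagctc

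The Ckmt2 promoter holds 4 E-boxes, whose first bases lie at -248, -189, -153 and -107 from the start. It holds no MEF2-type match. Of 32851 promoters of this length, 68.9% hold at least 1 E-box and 4.86% hold at least 4. No E-box was found in the Ckb promoter. Its MEF2-type match begins at -29 and overlaps a TATA box (TATAAA at -28), and 3.41% of promoters hold the first and 12.9% the second. The other members with a promoter in the table hold fewer E-boxes: 1 each for Gatm, Gamt and Alpl, and 2 for Ryr2. The letters TGATGNAA of a CARE-type element, the site class bound by ATF4 with its partners, were searched on both strands and found in 0 of the 6 member promoters, against 3.69% of all. These matches describe the letters only.

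Of the 8 members, 1 passed the genotype test (Ckmt2, higher in KO), where 0.78% of all genes tested passed (122 of 15643, 120 of them higher in KO) and where the test was the edgeR quasi-likelihood test with Benjamini-Hochberg adjustment over all genes tested and a threshold of 0.05. The same member alone passed with the library prefix as a block, where 2.05% of all genes passed. The other 7 had an adjusted p of 0.9998 each, unadjusted p was under 0.05 for 0 of them, and DESeq2 and limma-voom called 0 of them. Both KO libraries lay beyond both WT libraries in CPM for 4 members, against 26.3% of all genes: Ckmt2 lay above, and Gatm, Gamt and Ryr2 below. The prefixes did not overlap for the other 4 members, against 53.2% of all genes, with Ckb and Alpl higher in S1 and Slc6a8 and Atp2a2 higher in S2. The median log2 fold change, KO over WT, was 0.008 over the members and 0.002 over all genes tested. With 2 libraries a group an exact permutation test of a single gene cannot go below 0.333, so the calls rest on the model fitted across all genes.

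Per length, the level of the genes had a clear order. Atp2a2 (38.6 to 63.4 TPM, transcript abundance scaled to a fixed total and corrected for length) and Ckb (33.1 to 61.4 TPM) overlapped at the top. Slc6a8 (10.3 to 19.1 TPM), Alpl (5.06 to 12.5 TPM) and Gamt (3.15 to 5.15 TPM) came next, each overlapping its neighbour. Ryr2 (0.890 to 2.33 TPM) and Gatm (0.567 to 0.765 TPM) were lowest and did not overlap. Ckmt2 was below all of them in WT (0 and 0.0219 TPM) and in the range of Slc6a8 in KO (19.1 and 17.1 TPM).

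**Figure D1:**
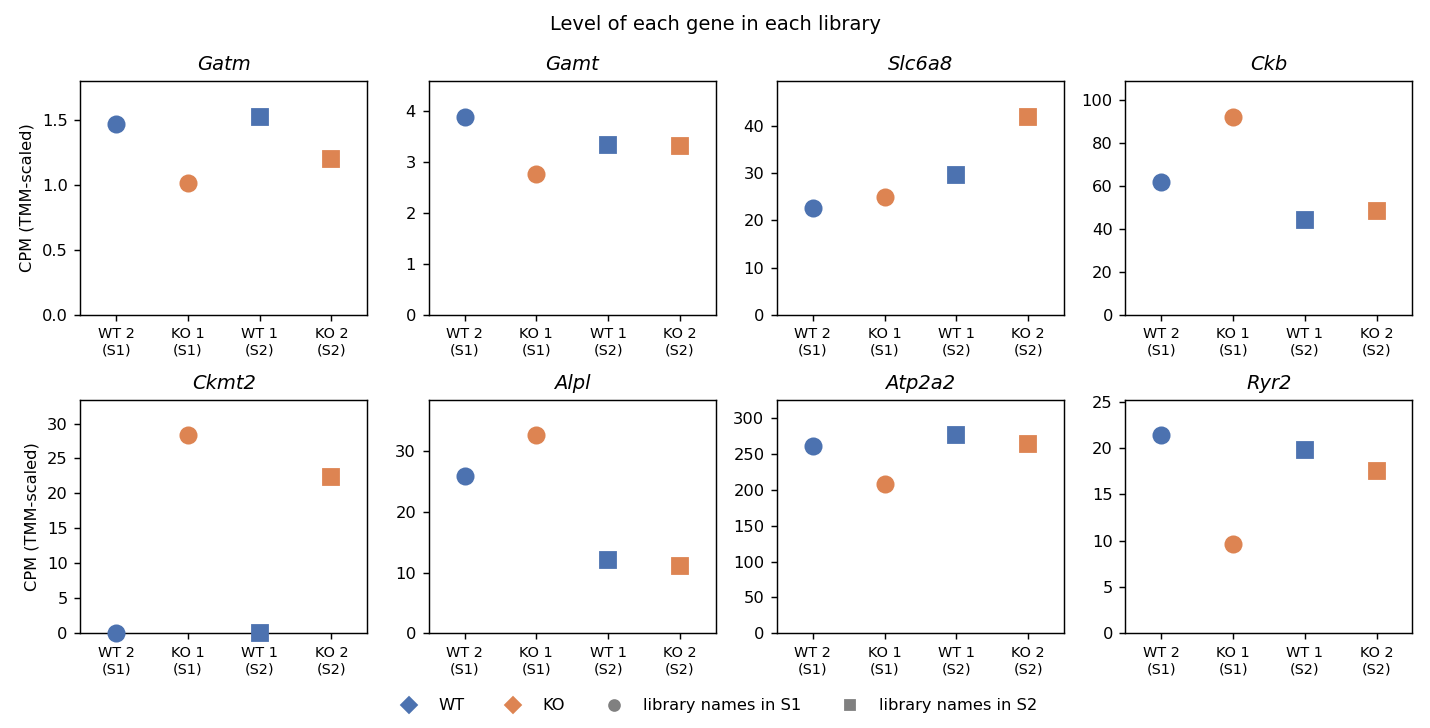
CPM (y axes, linear, each with its own range) of each of the 8 genes in WT and KO, with 1 point per library, the genotype as its colour and the prefix (S1 or S2) as its shape. Ckmt2 sits at or near 0 in both WT libraries and at 22.3 to 28.3 CPM in KO, while Ckb and Alpl are highest in the S1 libraries of either genotype.

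Creatine synthesis was at low levels in all 4 libraries. Gatm (ENSMUSG00000027199, chromosome 2, 122594467 to 122611303, minus strand, GRCm38) encodes the arginine:glycine amidinotransferase that makes guanidinoacetate in the first step of the pathway. It was at 1.53 (WT 1), 1.47 (WT 2), 1.02 (KO 1) and 1.20 CPM (KO 2), from 26 to 54 counts a library. Both KO values lay below both WT values, with means of 1.50 ± 0.0419 in WT and 1.11 ± 0.130 CPM in KO (SD, 2 libraries each). The edgeR log2 fold change was -0.43 (SE 0.34, adjusted p = 0.9998), and the difference was -0.51 in log2 CPM between the S1 libraries and -0.33 between the S2 libraries.

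Gamt (ENSMUSG00000020150, chromosome 10, 80258151 to 80261012, minus strand) encodes the guanidinoacetate methyltransferase that completes creatine. Its level was 3.35 (WT 1), 3.89 (WT 2), 2.77 (KO 1) and 3.32 CPM (KO 2). KO 1 was the lowest and KO 2 lay next to WT 1, with a difference in log2 CPM of -0.48 between the S1 libraries and -0.01 between the S2 libraries. The log2 fold change was -0.25 (SE 0.27, edgeR adjusted p = 0.9998). Gamt made up 83.5 to 88.0% of the summed TPM of the pair in each library. Mat2a, which makes the methyl donor that GAMT uses, was at 103 and 87.4 (WT) and 59.9 and 82.5 CPM (KO), without overlap, and did not pass either (log2 fold change -0.42, SE 0.22, edgeR adjusted p = 0.9998; named after its values were seen).

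Uptake was represented by Slc6a8 (ENSMUSG00000019558, chromosome X, 73673150 to 73682502, plus strand), the sodium- and chloride-dependent creatine transporter of the plasma membrane. It was at 29.7 (WT 1), 22.6 (WT 2), 25.0 (KO 1) and 42.0 CPM (KO 2). In CPM the S2 library was the higher of the pair in both genotypes, and KO was the higher of the pair in both prefixes. In TPM KO was the lower in S1 (10.3 in KO 1, 11.3 in WT 2) and the higher in S2 (19.1 in KO 2, 14.2 in WT 1). The genotype difference was 0.36 (SE 0.29, edgeR adjusted p = 0.9998) on the log2 scale, and it was 0.68 without KO 1 and -0.07 without KO 2. S2 over S1 it was 0.57 (SE 0.16, edgeR adjusted p = 0.0847) in the fit with genotype and prefix. The transporter was at 10.3 to 19.1 TPM. kallisto assigned 27.9 to 44.6% of that TPM to a transcript annotated for nonsense-mediated decay (Slc6a8-202) and 19.8 to 33.1% to the coding transcript Slc6a8-203 of 635 codons, a split that shared exons leave uncertain.

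Ckmt2 was nearly absent from WT and present in KO, whereas Ckb was expressed in both genotypes. Ckmt2 (ENSMUSG00000021622, chromosome 13, 91853387 to 91876885, minus strand) has 1 annotated transcript, of 10 exons and 419 codons. Its counts were 0 (WT 1), 1 (WT 2), 725 (KO 1) and 651 (KO 2). In CPM these were 0, 0.0272, 28.3 and 22.3, and a count of 0 in WT 1 allows up to 0.0956 CPM (3 counts). The group means were 0.0136 ± 0.0192 CPM in WT and 25.3 ± 4.25 CPM in KO (SD, n = 2 each). Pooled over libraries, the ratio of KO to WT was 1712, with an exact 95% interval of 307 to 67653 that covers counting error only and rests on the 1 WT count. Ckmt2 rose in the edgeR fit (log2 fold change 10.40, SE 0.47, adjusted p = 0.000693), a fitted value that depends on the prior count because WT is near 0 (9.66 without WT 1, 12.51 without WT 2). The difference in log2 CPM was 8.26 between the S1 libraries and 8.43 between the S2 libraries. An antisense gene, 1700119I11Rik, overlaps Ckmt2 by 613 bases and was at 0 in all libraries.

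The muscle markers moved with Ckmt2, and their part in its difference was not tested. Ckmt2 counts were 10.6% of those of Ckm in KO 1 and 9.09% in KO 2, and 4.27% and 4.90% of those of the skeletal actin gene Acta1. Ckm encodes the cytosolic creatine kinase of muscle. It was at 0.0319 (WT 1), 0.272 (WT 2), 268 (KO 1) and 246 CPM (KO 2), and it rose (log2 fold change 10.61, SE 0.57, edgeR adjusted p = 0.00155). Slow-fibre markers rose too, 6 of 7, from a sum of 1.06 to 1.15 CPM in WT to 47.3 CPM in KO 1 and 29.6 CPM in KO 2. Of all genes tested 0.78% were called. The 2 slow-fibre markers at 0 in WT 2 could not have passed the filter on low counts without the KO libraries. The count of slow-fibre markers called was 2 without KO 2, 4 without KO 1 and 4 in limma-voom. Ckmt1, the mitochondrial kinase of brain and other non-muscle tissue, had no counts in WT 1, KO 1 and KO 2 and 0.0544 CPM in WT 2, and was not tested.

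Ckb (ENSMUSG00000001270, chromosome 12, 111669361 to 111672338, minus strand) was at 44.3 (WT 1), 61.8 (WT 2), 92.4 (KO 1) and 48.3 CPM (KO 2). The genotypes overlapped, since KO 2 lay between the WT libraries. The log2 fold change was 0.41 (SE 0.35, edgeR adjusted p = 0.9998). Within prefixes the KO library was higher by 0.58 in S1 and by 0.12 in S2 in log2 CPM, and the blocked edgeR fit gave 0.35 (SE 0.16, adjusted p = 0.586) on the log2 scale. A single coding transcript of 381 codons, Ckb-201, held 97.7 to 99.1% of the gene's TPM.

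Summed over the 4 creatine kinase genes, the level was 33.2 and 49.8 TPM in WT and 366 and 368 TPM in KO. Ckb made up 99.9% and 99.6% of it in WT and 16.8% and 10.1% in KO. Ckm took 78.0% and 85.3% of the KO sum, and Ckmt2 took 5.21% and 4.64%. Ckb itself stood at 33.1 and 49.6 TPM in WT and at 61.4 and 37.1 TPM in KO.

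**Figure D2:**
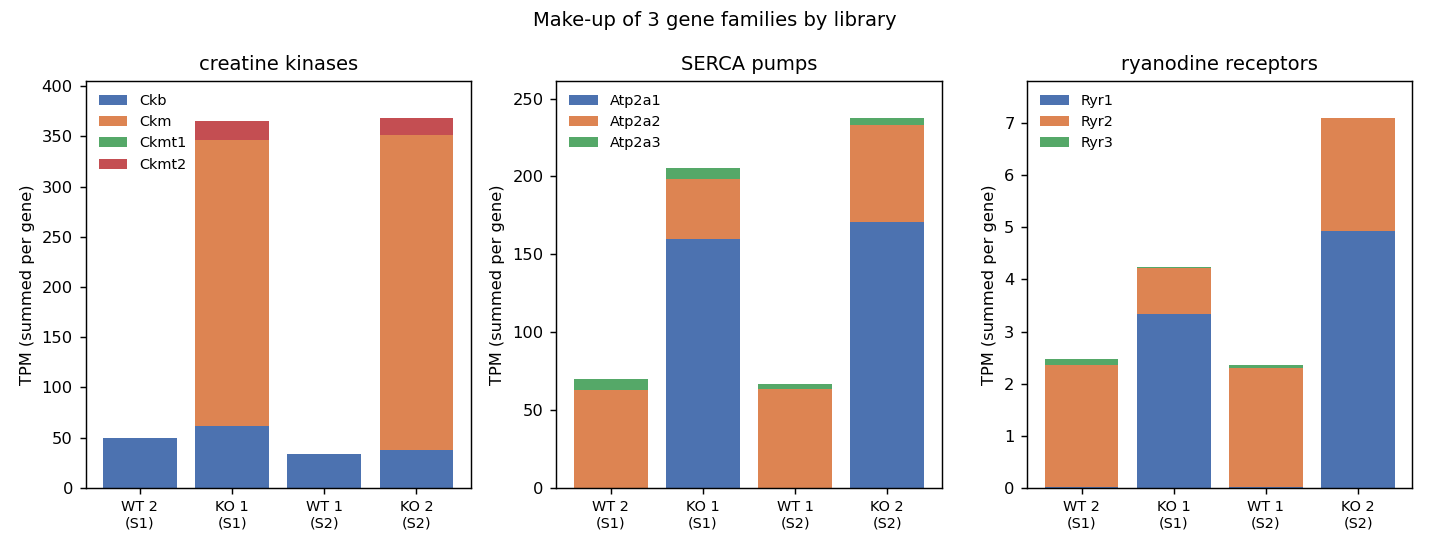
Summed TPM (y axis, linear, from 0) of the creatine kinases, the SERCA pumps and the ryanodine receptors in each library, stacked by gene. The muscle genes Ckm, Atp2a1 and Ryr1 make up 69.3 to 85.3% of their families in the KO libraries and 0.874% or less in WT, where Ckb, Atp2a2 and Ryr2 make up 89.9% or more.

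Among phosphatases, Alpl (ENSMUSG00000028766, chromosome 4, 137741733 to 137796384, minus strand) encodes the alkaline phosphatase that hydrolyses phosphocreatine in the mitochondria of thermogenic fat. It was at 12.0 (WT 1), 26.0 (WT 2), 32.7 (KO 1) and 11.1 CPM (KO 2). Both S1 libraries lay above both S2 libraries whatever the genotype, and the groups overlapped. The genotype difference was 0.20 (SE 0.57, edgeR adjusted p = 0.9998) on the log2 scale, with 0.86 without WT 2 and -0.77 without KO 1. Between the S1 libraries KO was 0.33 higher in log2 CPM, and between the S2 libraries it was lower (-0.11). Phospho1, a phosphatase of phosphocholine and phosphoethanolamine that has been tied to phosphocreatine in brown fat, was far higher per length, at 209 to 337 TPM against 5.06 to 12.5 TPM for Alpl. Alpl was 5.55% and 5.65% of the TPM of the pair in the S1 libraries and 2.17% and 1.48% in the S2 libraries. Phospho1 was at 283 and 246 (WT) and 316 and 381 CPM (KO), without overlap, with a log2 fold change of 0.40 (SE 0.21, edgeR adjusted p = 0.9998).

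Between the prefixes, 2 of the 8 members passed the edgeR test in the fit with genotype and prefix, where 3.14% of all genes passed (491 of 15643). Alpl was lower in S2 (log2 fold change -1.33, SE 0.16, adjusted p = 0.00371), and the difference was -1.10 within WT and -1.55 within KO in log2 CPM. Ckb was lower in S2 too (log2 fold change -0.71, SE 0.17, edgeR adjusted p = 0.049, close to the threshold), with -0.48 within WT and -0.94 within KO. That fit has 1 residual degree of freedom, and neither gene passed when the prefix was the sole term (adjusted p = 0.285 for Ckb and 0.277 for Alpl). Endothelial markers moved with both genes, and their part in the difference was not tested. Their sum was 1354 and 1779 CPM in S1 (WT 2 and KO 1) and 920 and 1113 CPM in S2 (WT 1 and KO 2). Of the 10 markers 5 were lower in S2 by the test, and Cldn5, a tight junction protein of endothelium, was higher. The sum of 15 brown adipocyte markers was higher in S1 too, at 16878 and 18788 CPM against 15856 and 15383 CPM in S2. Of these 15 genes, 5 lay higher in both S1 libraries and 1 lay higher in both S2 libraries. The part of the brown adipocyte markers was not tested either. Ckb counts were 22.3 to 25.2% of those of Kdr, an endothelial growth factor receptor, and 22.8 to 27.4% of those of the cadherin gene Cdh5. Alpl counts were 9.35% and 8.40% of those of Kdr in S1 and 6.85% and 5.69% in S2, and 9.57% and 9.71% of those of Cdh5 in S1 and 6.83% and 5.42% in S2. Kdr and Cdh5 were chosen after their values were seen.

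**Figure D3:**
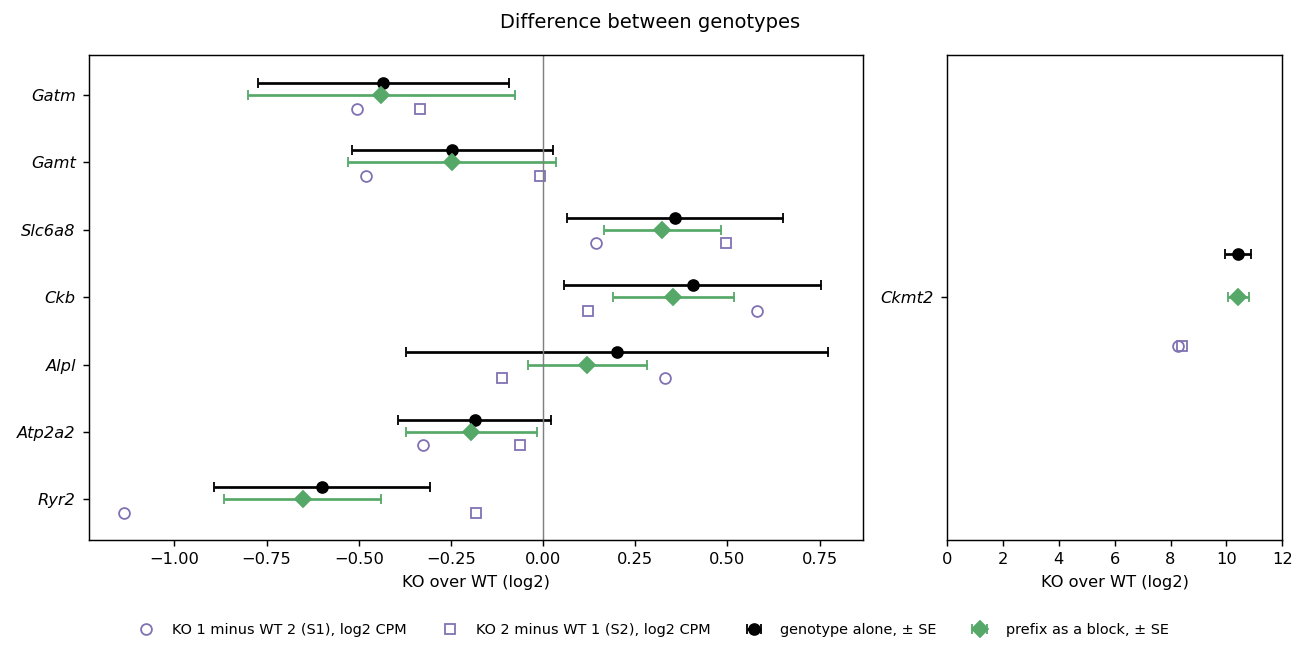
KO over WT on the log2 scale (x axis) of each of the 8 genes (y axis): the fitted change ± SE with genotype alone and with the prefix as a block, and the difference in log2 CPM (prior count 2) within S1 and within S2, 1 library against 1. Within prefixes, in log2 CPM, Ckmt2 is higher in KO by 8.26 and 8.43. Alpl is the only gene with opposite directions in S1 and S2 in log2 CPM (0.33 and -0.11), and the other within-prefix values lie between -1.14 and 0.58. In TPM, not drawn here, Slc6a8 and Gamt have opposite directions and Alpl does not.

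In the calcium cycle neither member passed the test between the genotypes, and the muscle pump and the muscle channel rose. Atp2a2 (ENSMUSG00000029467, chromosome 5, 122453513 to 122502225, minus strand) had the highest CPM of the 8 genes in every library, and per length it was the highest in all but KO 1, where Ckb was at 61.4 TPM. It was at 276 (WT 1), 261 (WT 2), 209 (KO 1) and 264 CPM (KO 2). KO 1 was the lowest, and the KO 2 value lay between those of the WT libraries. The log2 fold change was -0.19 (SE 0.21, edgeR adjusted p = 0.9998), and without KO 1 it was -0.03. In TPM Atp2a2 was at 63.4 (WT 1), 62.8 (WT 2), 38.6 (KO 1) and 62.2 (KO 2). KO 1 alone was low, and by more than in CPM. TPM is not TMM-scaled. The 13 protein-coding genes of mitochondrial DNA held 38.4% of the counts of KO 1, against 32.2 to 33.3% in the other libraries. The reason for the low value was not tested.

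The annotation holds a coding transcript of 998 codons, Atp2a2-202, and a longer one of 1044 codons, Atp2a2-201, the lengths of the forms known as SERCA2a (heart and slow muscle) and SERCA2b (most tissues). Atp2a2-202 was at 31.6 (WT 1), 32.8 (WT 2), 17.7 (KO 1) and 29.0 TPM (KO 2), which was 45.7 to 52.2% of the gene. Atp2a2-201 was at 21.4, 13.8, 0 and 24.9 TPM in the same order, and Atp2a2-203, which is annotated for nonsense-mediated decay, was at 9.80, 16.0, 20.8 and 7.93 TPM. KO 1 was thus listed at 0 for Atp2a2-201 and highest for Atp2a2-203. Of the bases of Atp2a2-201, 98.9% also lie in Atp2a2-203, so reads of the pair are hard to assign, and their sum was 47.4 to 53.8% of the gene in all libraries. Atp2a2-202 lies wholly within the exons of Atp2a2-203, so its share is uncertain for the same reason.

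**Figure D4:**
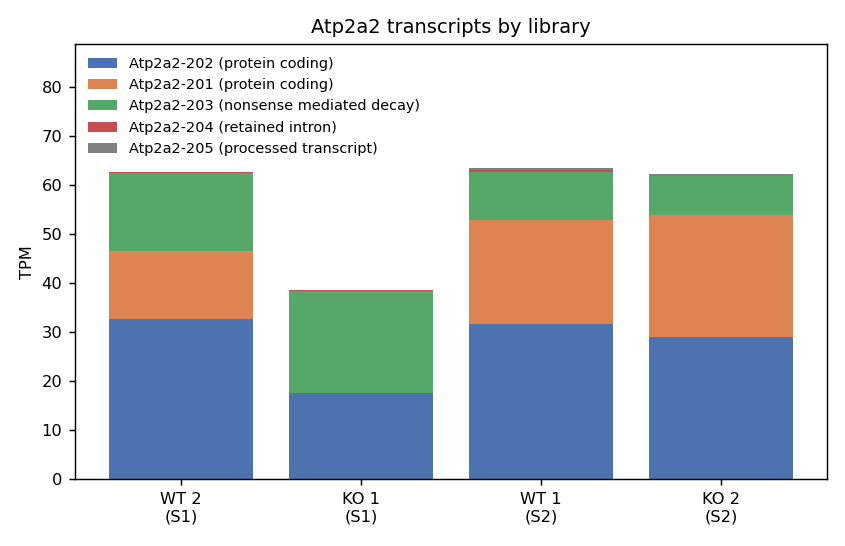
Deposited TPM (y axis, linear, from 0) of the Atp2a2 transcripts in each of the 4 libraries. Atp2a2-201 and Atp2a2-203 trade places between libraries (0 and 20.8 TPM in KO 1, 24.9 and 7.93 TPM in KO 2), while Atp2a2-202 holds 45.7 to 52.2% of the gene.

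Atp2a1, the SERCA1 pump of fast muscle, was at 0.127 (WT 1), 0.272 (WT 2), 430 (KO 1) and 568 CPM (KO 2). It rose with a log2 fold change of 11.23 (SE 0.43, edgeR adjusted p = 0.000413), and the part of the muscle markers beside it was not tested. Atp2a2 made up 94.9% and 89.9% of SERCA TPM in WT and 18.8% and 26.2% in KO, where Atp2a1 held 77.9% and 71.8%. Atp2a3, the SERCA3 pump of endothelial and blood cells, followed the prefix like Ckb and Alpl. It was at 25.0 and 28.6 CPM in the S1 libraries (WT 2 and KO 1) and 14.2 and 16.6 CPM in the S2 libraries (WT 1 and KO 2), a log2 fold change S2 over S1 of -0.80 (SE 0.24, edgeR adjusted p = 0.0209). The small inhibitors of SERCA were scarce: phospholamban (Pln) was at 0.583 to 0.938 CPM, and sarcolipin (Sln) had 0 counts in WT and 4 and 2 counts in KO and was not tested.

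Ryr2 (ENSMUSG00000021313, chromosome 13, 11553102 to 12106945, minus strand), the calcium release channel of heart and brain that completes the cycle, was at 19.8 (WT 1), 21.4 (WT 2), 9.69 (KO 1) and 17.5 CPM (KO 2). Both KO libraries lay below both WT libraries, and most of the distance came from KO 1. The means were 20.6 ± 1.09 CPM in WT and 13.6 ± 5.51 CPM in KO (SD, 2 libraries each). The log2 fold change was -0.60 (SE 0.29, edgeR adjusted p = 0.9998, unadjusted p = 0.0889), with -1.09 without KO 2 and -0.24 without KO 1. It was -0.65 (SE 0.21, adjusted p = 0.265, unadjusted p = 0.0115) in the edgeR fit with the prefix as a block. KO 1 also had the lowest sum of 11 macrophage markers, at 100.5 CPM against 269 to 350 CPM in the other libraries. Macrophage markers were not alone in this. The sums of fibroblast markers (422 against 650 to 1037 CPM), white adipocyte markers (93.1 against 165 to 394 CPM) and regulators of the cycles (745 against 826 to 953 CPM) were lowest in KO 1 too. The part of these genes in the Ryr2 values was not tested.

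The full-length channel has 2 annotated transcripts, Ryr2-201 and Ryr2-202, with 105 exons and 4966 codons each. Their summed TPM was 0.942 (WT 1), 1.14 (WT 2), 0.453 (KO 1) and 0.810 (KO 2), the same order as the gene in CPM. A short transcript of 3086 bases, Ryr2-207, held up to 48.1% of the gene's TPM. Of its bases 99.1% lie within Ryr2-201.

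Ryr1, the channel of skeletal muscle, was at 0.191 and 0.163 (WT) and 51.6 and 65.3 CPM (KO), and it rose (log2 fold change 8.34, SE 0.29, edgeR adjusted p = 0.000391). Ryr2 therefore went from 97.2% and 94.3% of ryanodine receptor TPM in WT to 21.0% and 30.7% in KO, while Ryr3 was at 0.118 TPM or less in all libraries. Per length the IP3 receptors, the other calcium release channels of the endoplasmic reticulum, were above all ryanodine receptors together: they summed to 53.1 and 40.6 TPM in WT and 24.8 and 36.5 TPM in KO, against 2.36 to 7.10 TPM. Itpr1 was at 154 and 131 (WT) and 98.4 and 122 CPM (KO), without overlap and without passing (log2 fold change -0.37, SE 0.20, edgeR adjusted p = 0.9998). Itpr2 and Itpr3 followed the prefix in opposite directions, with log2 fold changes S2 over S1 of 0.69 (edgeR adjusted p = 0.0439) and -1.34 (edgeR adjusted p = 0.00407).

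The other genes of the pathways were read from 5 lists. Of 9 tested creatine genes outside the members, 1 rose in KO (Ckm) and 0 fell, with a median log2 fold change of 0.008. Among 17 tested partners of calcium release, 3 rose: Ryr1, the triadin gene Trdn (0.127 and 0 CPM in WT, 14.1 and 14.8 CPM in KO) and the junctophilin gene Jph2 (2.10 and 1.88 CPM in WT, 12.3 and 14.4 CPM in KO). Triadin anchors the release channel and junctophilins tether the plasma membrane to the calcium store. In edgeR the log2 fold change was 2.74 for Jph2 (SE 0.22, adjusted p = 0.0068) and 7.84 for Trdn (SE 0.63, adjusted p = 0.00732). Like that of Ckmt2, the fitted changes of genes near 0 in WT moved with the WT library left out, from 6.78 to 11.79 for Trdn, 9.86 to 12.79 for Ckm, 10.82 to 11.89 for Atp2a1 and 6.30 to 7.49 for Hrc, and all of these genes stayed called. Of 13 tested genes of calcium pumping and storage, 3 rose: Atp2a1, the calsequestrin gene Casq1 (0.159 and 0.191 CPM in WT, 35.5 and 41.0 CPM in KO) and the histidine-rich calcium-binding protein gene Hrc (0.191 and 0.0817 CPM in WT, 16.2 and 14.6 CPM in KO). In both calcium lists 0 genes fell and the median log2 fold change was -0.011. With the prefix as a block the same 7 genes passed in these lists. They are known from muscle, and the part of the muscle markers in these values was not tested. All of them but Jph2 passed the filter on low counts through the KO libraries, as Ckmt2 did.

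The fourth list held genes of mitochondrial and store-operated calcium entry. Of 21 such genes edgeR, DESeq2 and limma-voom called 0, and unadjusted p in edgeR was under 0.05 for 0. The pore gene Mcu was at 13.9 and 14.3 (WT) and 14.8 and 16.4 CPM (KO). The same held for the 11 tested regulators of the cycles, with 0 called by each tool and 0 at an unadjusted p under 0.05 in edgeR. Esrra, an orphan nuclear receptor of oxidative metabolism genes, was at 135 and 161 (WT) and 175 and 143 CPM (KO). Its relative Esrrg was at 12.6 and 11.7 (WT) and 7.78 and 19.6 CPM (KO), the KO libraries lying on either side of WT. Adra1a, the alpha-1A adrenergic receptor, was at 67.4 and 49.7 (WT) and 39.9 and 74.0 CPM (KO), with both S2 libraries above both S1 libraries (log2 fold change 0.67 S2 over S1, edgeR adjusted p = 0.0593).

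**Figure D5:**
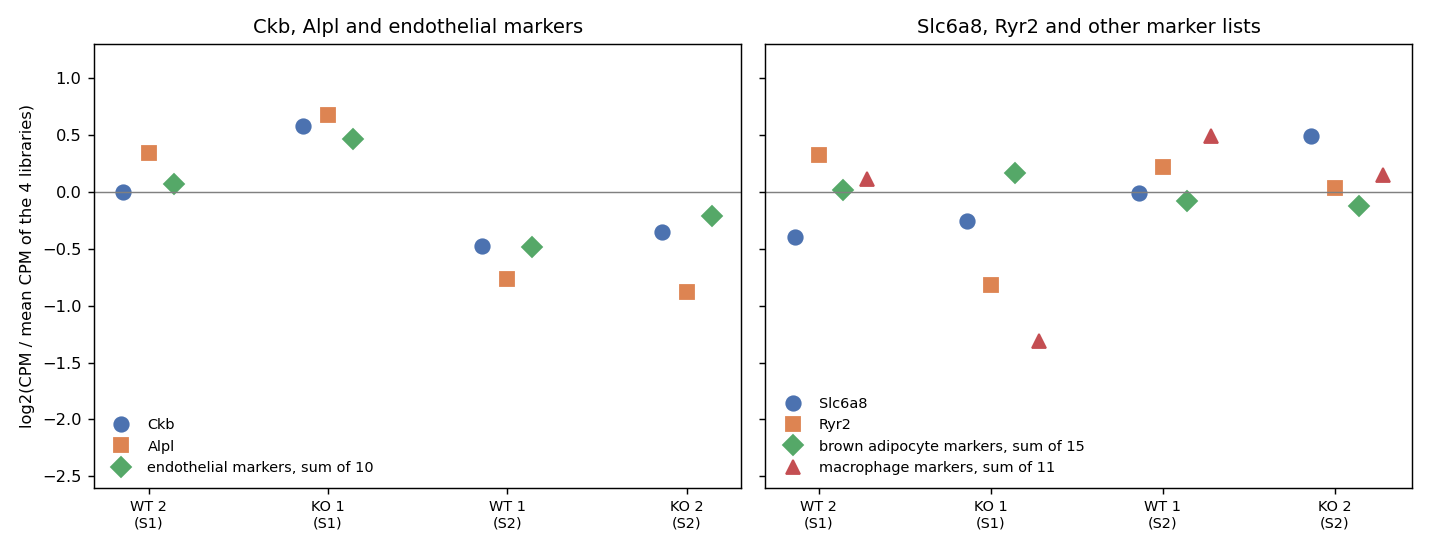
Log2 of CPM over the mean CPM of the 4 libraries (y axis) in each library (x axis) for Ckb and Alpl beside the sum of 10 endothelial markers, and for Slc6a8 and Ryr2 beside the sums of 15 brown adipocyte and 11 macrophage markers, with 1 point per library. Ckb and Alpl lie highest in WT 2 and KO 1 as the endothelial sum does (1354 and 1779 CPM), and Ryr2 and the macrophage sum are both lowest in KO 1. The brown adipocyte sum is highest in WT 2 and KO 1 too (16878 and 18788 CPM). The sums of fibroblast and white adipocyte markers, not drawn here, are lowest in KO 1 too.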

How the data were processed

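RNA-seq was done on 2 KO and 2 WT libraries. Per the labels' protocols the kit was a stranded TruSeq mRNA kit, and per the submitters' processing notes kallisto 0.45.0 and build mm10 were used. The sources used here do not give the strand setting or any trimming. The authors deposited an estimated count and a TPM value for each of 141450 transcripts a library, per the file headers. Of these, 138191 (97.7%) were matched to GENCODE vM21 genes, and estimated counts and TPM were summed per gene. TPM was used for levels between genes and transcripts, and counts, rounded to whole numbers, for tests.

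The test was edgeR 4.0.16 (R 4.3.3): quasi-likelihood, TMM, filterByExpr with a minimum count of 10 and minimum total of 15, genotype as the sole term, and Benjamini-Hochberg adjustment over 15643 genes. A second fit had genotype and prefix and gave S2 over S1. Standard errors (SE) were derived from the F statistic of each change. All p-values reflect only the spread among the 4 libraries, which may be technical. WT and KO replicates differed by far more than sampling noise (chi-square per degree of freedom 46.0 and 123.9). Alternatives were DESeq2 1.42.0, limma 3.58.1, other scalings and filters, both blocks and leaving out each library. The fits were also run on counts simulated with a genotype effect in some genes and no prefix effect. That run cannot show how they behave with a prefix difference like the one in these libraries.

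Members, gene lists and named genes were chosen with earlier results of these data known. Named were the members, 17 genes of their families and regulators in any case, and up to 5 called genes of smallest p per list. Any other gene, such as Mcu, Mat2a, Kdr, Cdh5 or Cldn5, was chosen after its values were seen. The 16 lists gave these called genes in KO (higher and lower, edgeR without a block): brown adipocyte 0 and 0, skeletal muscle 16 and 0, slow muscle 6 and 0, heart muscle 0 and 0, smooth muscle 0 and 0, white adipocyte 0 and 0, macrophage 0 and 0, endothelial 0 and 0, fibroblast 0 and 0, nerve 0 and 0, bone and cartilage 0 and 0, and the 5 pathway lists as given above. With the prefix as a block these counts were 0 and 1 for brown adipocyte (Dio2), 18 and 0 for skeletal muscle, 7 and 0 for slow muscle, 1 and 0 for heart muscle (Actc1), 1 and 0 for smooth muscle (Des), 0 and 4 for white adipocyte (Lep, Mest, Nnat, Slc7a10) and 0 and 1 for fibroblast (Dpt), and did not change for the other lists. DESeq2 called 1 smooth muscle gene higher (Des). Promoters are RefSeq sequences and were in the table for 6 of 8 members. Protein sequences were not used here.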

Additional observations from a re-analysis of the deposited data

Results flagged for a closer look

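In CPM, Alpl was the only one of the 8 genes whose KO and WT libraries differed in opposite directions in the 2 library prefixes. KO minus WT in log2 CPM was 0.330326 in S1 (26.0 CPM in WT 2, 32.7 in KO 1) and -0.11188 in S2 (12.0 CPM in WT 1, 11.1 in KO 2). The result depends on the unit. TPM is not TMM-scaled, and over all genes tested the median log2 fold change, KO over WT, was -0.073 in limma on log2(TPM + 1). In the edgeR fit on counts it was 0.002. In TPM, Alpl was lower in KO in both prefixes (12.53 and 12.52 in WT 2 and KO 1, 5.46 and 5.06 in WT 1 and KO 2). Opposite directions in TPM were seen for Slc6a8 (11.3 and 10.3 in S1, 14.2 and 19.1 in S2, WT first). Gamt also had them (5.15 and 3.15 in S1, 4.09 and 4.16 in S2). Each comparison is 1 library against 1 in each prefix, and the difference between the prefixes was not tested.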

How the results depend on the processing

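Ckmt2 alone among the members passed between the genotypes in each alternative that kept all 4 libraries (highest adjusted p 0.00522, limma-voom). Its log2 fold change was 9.66 to 12.51 with 1 library left out. The lowest adjusted p of the other 7 with all libraries kept was 0.265 (Ryr2, edgeR with the prefix as a block). These are refits of the same libraries, not independent support, and Ckmt2 passed the filter on low counts through KO. The count of genes called over all genes, 122, was 457 with no filter on low counts, 218 in DESeq2 and 320 with the prefix as a block, and all 122 were shared in each. It was 78 to 205 with 1 library left out each time (78 without KO 2, 116 without KO 1, 187 without WT 1, 205 without WT 2). Deviations from the group means went together by prefix and not by the replicate number of the titles, with a correlation of 0.38 for the same prefix over 15643 genes. With 2 libraries a group, the value for the same number (-0.38) is that value with its sign reversed, not a second result. With the replicate number as a block 164 genes were called, and 1 member, Ckmt2. The crossed pairing is the prefix block, with 320 genes and the same 1 member. S2 over S1, 491 genes and 2 members were called, against 1 gene and 0 members with the prefix as the sole term, and 1446 genes and 3 members with no filter, which added Slc6a8 (adjusted p = 0.0193). Leaving out a library there leaves no residual degree of freedom and was not run.

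Directions reversed in limma on log2(TPM + 1) for Alpl (-0.0468) and on log2(TPM + 0.1) for Alpl (-0.0545) and Esrrg (-0.0247). S2 over S1 Gamt was -0.0028 with the prefix as the sole term and -0.0093 in limma-voom, against 0.01. With 1 library left out, log2 fold changes spanned -0.067 to 0.68 for Slc6a8, -0.14 to 0.80 for Ckb, -0.77 to 0.86 for Alpl, -0.24 to 0.67 for Atp2a3, -0.44 to 1.22 for Itpr3, -0.42 to 0.26 for Pln, -0.0500 to 0.24 for Esrra, -0.65 to 0.69 for Esrrg and -0.56 to 0.34 for Adra1a. The cause of these reversals was not tested. Of 136 member values between genotypes 130 kept direction and call and 6 reversed. Ckb and Alpl rest on libraries that differ by prefix, and Gatm rests on 26 to 54 counts a library.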
